A study of Mus musculus with 32 samples.

Results

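The transcription factor p53, encoded by Trp53, and 9 genes of its pathway were followed in young and aged hematopoietic stem and progenitor cells of the mouse. The 10 genes were taken by symbol from the 24421 genes of the raw count table: Trp53 itself, its inhibitors Mdm2 and Mdm4, and the target genes Ccng1, Sesn1, Sesn2, Phlda3, Zmat3, Trp53inp1 and Aen. All 10 passed the filter on low counts that left 14154 genes for testing. RNA sequencing was performed on 8 fractions sorted from the bone marrow of female mice of the C57BL/6 strain, which were 10 weeks (Young) or 20 months (Aged) old. The fractions were hematopoietic stem cells (HSCs), the multipotent progenitors MPP1, MPP2, MPP3 and MPP4, the GMPs, which give rise to granulocytes and macrophages, the MEPs, which give rise to megakaryocytes and red cells, and the CLPs, the common progenitors of lymphocytes. They were gated as lineage-negative cells by Flt3, CD48, CD150, CD34, FcgR, the IL-7 receptor, c-kit and Sca-1, and mice of both ages were untreated. Each of the 16 groups had 2 libraries, 32 in all, with total counts of 11237384 to 17723245. One passage of the study describes duplicate sorts from marrow pooled for each age, whereas others speak of biological duplicates, so the spread between duplicates may be technical and the p-values then measure only that spread. Differences are log2 ratios of aged over young from edgeR's quasi-likelihood fit with TMM scaling of the libraries, each with its standard error (SE), and a gene was called where the p-value, adjusted over all genes tested, was below 0.01.

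p53 accumulates when DNA is damaged or cells are stressed in other ways, and it activates genes that stop the cell cycle, repair DNA, adjust metabolism or trigger cell death. Its level is set mostly at the protein level: Mdm2 is a ubiquitin ligase that marks p53 for destruction, Mdm4 binds p53 and blocks its activity, and Mdm2 is itself a p53 target, which closes a feedback loop. In the blood system p53 is known for keeping stem cells quiescent and for removing damaged stem cells after irradiation. Transcript levels of Trp53 are therefore not a measure of p53 activity, which is usually read from its target genes.

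The listed progenitor genes of GMPs, MEPs and CLPs were each highest in the fraction of that name at both ages. The summed level of Mpo, Elane, Prtn3 and Ctsg, genes of granule proteins, was 73544 to 73932 CPM (counts per 1000000 counts of the library) in young and 76029 to 77013 CPM in aged GMPs. The erythroid genes Gata1, Klf1, Epor and Car1 summed to 4894 to 4931 CPM in young and 6059 to 6301 CPM in aged MEPs. The lymphoid genes Dntt, Rag1, Ebf1 and Il7r summed to 1941 to 1975 CPM in young and 1999 to 2482 CPM in aged CLPs and were all at 0 in young HSCs. Late erythroid genes were not highest in MEPs, with 212 to 245 CPM in young MEPs against 368 to 389 CPM in young CLPs. In aged libraries they summed to 32.2 to 43.95 CPM in MEPs and 68.7 to 74.2 CPM in CLPs. Genes of macrophages and of basophils and mast cells moved with age in several fractions. The 6 macrophage genes of the list (C1qa, C1qb, C1qc and Cd5l among them) summed to 131 to 144 CPM in young and 2.50 to 3.00 CPM in aged CLPs, and they were also lower in aged HSCs and in each aged MPP fraction. Young CLPs held 1664 to 1697 CPM of 5 basophil and mast cell genes against 7.64 to 11.6 CPM in aged CLPs, where Prss34 was at 0. Young GMPs held 527 to 530 CPM of these genes, less than young CLPs. In such bulk samples, fewer cells of a type and less RNA per cell cannot be told apart.

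The promoters of the genes are shown because p53 binds DNA as a tetramer to pairs of a 10-base half-site. Promoter windows from 250 bases before to 50 bases after the start site were taken from RefSeq (GRCm38.p6) for 8 of the 10 genes, with none for Zmat3 and Trp53inp1. An exact match to the p53 half-site consensus, which reads the same on both strands, lay in the window of 5 of these 8 genes, against 9.554% of all 27025 genes with a promoter entry. The matches are listed 5′ to 3′ on the strand of the gene, with the 4-base core in capitals.
Trp53: ggaCTTGccc
Mdm2: gaaCTTGcct
Ccng1: gggCAAGcct
Sesn1: aagCTTGttt
Aen: gggCTTGtcc
The first base of the match was at -75 from the start site in Trp53, -186 in Mdm2, -185 in Ccng1 and -173 in the second of 2 Sesn1 promoters. In Aen 1 match lay at 10 from one start site and at -121 from the other, in windows that overlap. The windows of Mdm4, Sesn2 and Phlda3 held no exact match.

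Sesn1 was the 1 gene of the 8 with a pair of half-sites in its window, starting at -186 from the start site and separated by 3 bases, with 2 mismatches in all. Such pairs, with a spacer of at most 13 bases and at most 2 mismatches, were found for 2.468% of all genes with an entry. For Sesn1, Ccng1, Mdm2 and Aen, each called by age in at least 2 fractions, 1 window is printed 5′ to 3′ on the strand of the gene. Half-sites are in capitals. Trp53inp1 was also called in 2 fractions but had no window.
Sesn1 (chr10:41887189-41887488, + strand): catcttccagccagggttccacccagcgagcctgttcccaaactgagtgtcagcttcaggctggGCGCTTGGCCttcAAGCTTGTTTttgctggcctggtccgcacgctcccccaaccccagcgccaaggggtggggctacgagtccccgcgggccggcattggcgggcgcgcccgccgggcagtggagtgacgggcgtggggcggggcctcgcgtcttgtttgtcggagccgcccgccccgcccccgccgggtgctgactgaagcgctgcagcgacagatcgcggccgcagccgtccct
Ccng1 (chr11:40755237-40755536, - strand): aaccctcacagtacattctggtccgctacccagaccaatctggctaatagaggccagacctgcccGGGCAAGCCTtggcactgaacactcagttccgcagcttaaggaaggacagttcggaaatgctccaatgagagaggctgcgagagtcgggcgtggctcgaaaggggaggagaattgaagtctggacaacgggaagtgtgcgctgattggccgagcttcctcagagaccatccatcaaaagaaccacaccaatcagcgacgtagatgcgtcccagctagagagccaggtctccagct
Mdm2 (chr10:117710709-117711008, - strand): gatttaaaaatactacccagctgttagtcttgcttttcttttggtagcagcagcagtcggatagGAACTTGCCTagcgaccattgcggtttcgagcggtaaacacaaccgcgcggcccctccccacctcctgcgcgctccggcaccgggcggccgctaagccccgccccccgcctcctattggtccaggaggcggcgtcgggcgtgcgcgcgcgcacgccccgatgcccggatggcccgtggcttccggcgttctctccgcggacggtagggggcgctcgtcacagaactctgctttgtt
Aen (chr7:78895808-78896107, + strand): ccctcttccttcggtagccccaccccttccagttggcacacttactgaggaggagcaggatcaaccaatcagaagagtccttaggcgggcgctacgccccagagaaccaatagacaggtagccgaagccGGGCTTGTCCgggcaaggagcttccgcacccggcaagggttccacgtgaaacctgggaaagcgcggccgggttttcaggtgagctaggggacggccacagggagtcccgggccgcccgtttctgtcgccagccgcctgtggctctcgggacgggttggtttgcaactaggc
A match in these letters is a description of the window and not of binding, which was not read from these data. The known p53 sites of Mdm2 lie in an intron, outside the window shown.

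Per length, Trp53 was the most abundant of the 10 transcripts in each of the 16 groups. In young HSCs it was at 70.6 ± 0.88 CPM per kb of exon (SD, n = 2), followed by Sesn1 at 53.5 ± 0.34 and Ccng1 at 40.1 ± 1.7 CPM per kb. Mdm2 stood at 15.2 ± 0.064, Sesn2 at 12.7 ± 0.81, Aen at 8.71 ± 0.29 and Trp53inp1 at 5.34 ± 0.88 CPM per kb. The rarest were Phlda3 at 3.85 ± 0.28, Mdm4 at 3.73 ± 0.050 and Zmat3 at 0.194 ± 0.10 CPM per kb. Lengths are the union of annotated exons, which for Mdm4 is 14798 bases against 7105 bases in its longest transcript, so its level per length is the least certain. Zmat3 rested on few reads, with 5 to 95 counts per library. Levels given from here on are in CPM and compare libraries for 1 gene.

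**Figure D1:**
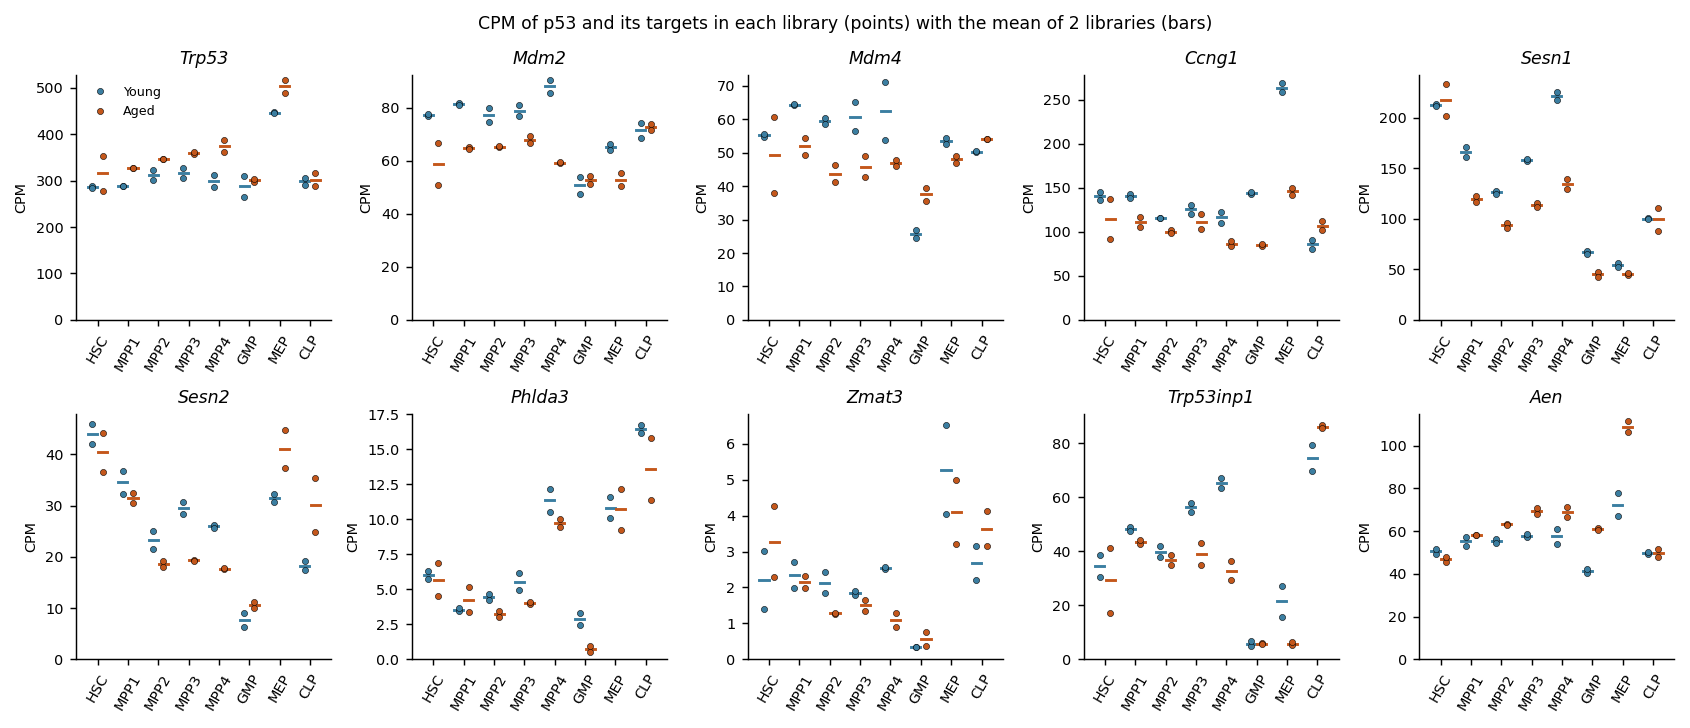
CPM (y axis, from 0) of each of the 10 genes in the 8 fractions (x axis), with 1 point for each library, Young in blue and Aged in orange, and a bar at the mean of the 2 libraries. Trp53 was highest in MEPs at both ages, Sesn1 was lower in aged than in young MPP1 to MPP4 and GMPs, and Ccng1 was lower in aged GMPs and MEPs.

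Trp53 (ENSMUSG00000059552.13, chr11:69580359-69591873, + strand, GRCm38 with GENCODE M21 positions) was higher in aged than in young MPPs. In MPP1 it was at 288 and 288 CPM in young and 328 and 328 CPM in aged libraries. MPP2 had 301 and 322 CPM in young and 348 and 346 CPM in aged libraries, and MPP3 had 307 and 328 CPM in young and 357 and 361 CPM in aged libraries. The widest gap was in MPP4, with 287 and 312 CPM in young and 361 and 388 CPM in aged libraries. In each of these 4 fractions both aged libraries lay above both young ones. The same held for 27.0%, 27.3%, 25.8% and 23.5% of all genes tested, in the order MPP1 to MPP4. The age difference passed the test (edgeR, adjusted p below 0.01) in MPP4 alone, where Trp53 rose by 0.41 on the log2 scale (SE 0.094, adjusted p = 0.00246). For MPP1 it was 0.23 (SE 0.094, adjusted p = 0.124), for MPP2 0.21 (SE 0.094, adjusted p = 0.155) and for MPP3 0.23 (SE 0.094, adjusted p = 0.087). Averaged over the 4 MPP fractions, Trp53 rose by 0.27 on the log2 scale (SE 0.047, adjusted p = 7.05e-05).

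MEPs held the highest Trp53 levels, at 449 and 445 CPM in young and 516 and 489.8 CPM in aged libraries. The aged MEP libraries lay above the young ones, by 0.17 (SE 0.093, adjusted p = 0.16) on the log2 scale, which did not pass. In MEPs 28.1% of all genes tested had both aged libraries above both young ones. GMPs were at 265 and 310.4 CPM in young and 298 and 303 CPM in aged libraries, and CLPs were at 291 and 306 CPM in young and 288 and 316 CPM in aged libraries. In both, young and aged libraries overlapped, with differences of 0.01 (SE 0.094, adjusted p = 1.00) and 0.03 (SE 0.094, adjusted p = 0.895). In HSCs the levels were 288 and 283 CPM in young and 278 and 354 CPM in aged libraries, so that one aged library lay under and the other above the young pair. The HSC difference of 0.20 (SE 0.094, adjusted p = 0.21) became 0.39 (adjusted p = 0.00264) without aged HSC replicate 1 and -0.03 (adjusted p = 0.875) without aged HSC replicate 2, so its sign depended on the library left out. The call in MPP4 was lost without young MPP4 replicate 1 (0.35, adjusted p = 0.0317), without aged MPP4 replicate 2 (0.36, adjusted p = 0.0381) and with a spread estimated from the 4 MPP4 libraries alone (0.41, adjusted p = 0.0121), 3 of its 11 alternatives.

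Mdm2 (ENSMUSG00000020184.15, chr10:117688875-117710758, - strand), the ligase that limits p53, moved the other way in the same cells. It fell in MPP4 from 90.3 and 85.6 CPM to 58.9 and 59.5 CPM, by 0.48 on the log2 scale (SE 0.085, adjusted p = 2.04e-04). In HSCs it fell from 77.0 and 77.4 CPM to 66.6 and 50.8 CPM, by 0.36 on the log2 scale (SE 0.085, adjusted p = 0.00834). Both aged libraries were below both young ones in these 2 fractions, and likewise in MPP1 (81.8 and 81.1 against 65.2 and 64.6 CPM), MPP2 (79.9 and 74.6 against 65.0 and 65.4 CPM), MPP3 (76.8 and 80.8 against 69.2 and 66.6 CPM) and MEPs (63.9 and 66.4 against 50.4 and 55.2 CPM). In those 4 the differences of -0.29, -0.19, -0.17 and -0.30 had adjusted p of 0.0278, 0.138, 0.168 and 0.0107, so none passed, although in MEPs the difference was -0.45 (adjusted p = 0.00579) without aged MEP replicate 2. Both aged libraries lay below both young ones for 25.2% of all genes tested in HSCs and 28.5% in MEPs. Across MPP1 to MPP4 these shares were 37.6%, 42.0%, 39.3% and 41.0%, in that order. The mean of Mdm2 over the MPPs fell by 0.28 on the log2 scale (SE 0.042, adjusted p = 1.09e-05). GMPs and CLPs showed no shift beyond their spread, at 53.8 and 47.5 CPM in young and 54.3 and 51.2 CPM in aged libraries and at 68.5 and 74.3 CPM in young and 71.4 and 73.9 CPM in aged libraries.

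The Mdm2 call in HSCs rested on the aged duplicates, which differed from each other. It was -0.21 (adjusted p = 0.135) without aged HSC replicate 2, -0.37 (adjusted p = 0.0364) without young HSC replicate 1 and -0.34 (adjusted p = 0.0644) without young HSC replicate 2. Without aged HSC replicate 1 it was -0.52 (adjusted p = 4.49e-04). With a spread estimated from the 4 HSC libraries alone it was -0.39 (adjusted p = 0.252). It was also lost with DESeq2 size factors (-0.34, adjusted p = 0.0117), without the filter (-0.37, adjusted p = 0.0109) and with the replicate number as a block (-0.36, adjusted p = 0.0138), in all 7 of 11 alternatives.

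Mdm4 (ENSMUSG00000054387.13, chr1:132959484-133030561, - strand), the second inhibitor, passed in 0 of the 8 fractions with edgeR, in 4 at an unadjusted p under 0.05 and in 1, the GMPs, with DESeq2. Its aged libraries lay below the young ones in MPP1 (64.2 and 64.6 against 49.3 and 54.5 CPM), MPP2 (60.3 and 58.5 against 46.3 and 41.3 CPM), MPP3 (65.2 and 56.4 against 49.0 and 42.7 CPM) and MPP4 (71.1 and 53.8 against 46.1 and 47.7 CPM). Of all genes tested, 37.6%, 42.0%, 39.3% and 41.0% had aged libraries below young ones in these 4 fractions, listed in the same order. Averaged over the 4 fractions Mdm4 fell by 0.34 on the log2 scale (SE 0.070, adjusted p = 3.98e-04). GMPs went against this, with 26.8 and 24.4 CPM in young and 39.5 and 35.7 CPM in aged libraries, a difference of 0.50 (SE 0.14, adjusted p = 0.0116). In HSCs the aged pair enclosed the young pair, at 60.6 and 37.8 against 54.7 and 55.7 CPM. MEPs were at 52.5 and 54.5 CPM in young and 47.0 and 49.1 CPM in aged libraries and CLPs at 50.2 and 50.5 CPM in young and 54.1 and 54.0 CPM in aged libraries. The test that the age difference was the same in all 8 fractions gave an adjusted p of 0.00972 for Mdm4 and 0.0111 for Mdm2.

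Within a library, the number of Mdm2 counts per Trp53 count does not depend on the scaling of the libraries. In MPP4 it was 0.275 to 0.314 in young and 0.153 to 0.163 in aged cells. The ratio was 0.267 to 0.273 for young HSCs and 0.144 to 0.239 for aged HSCs, and 0.282 to 0.284 against 0.197 to 0.199 in MPP1. The aged libraries had the lower ratio, without overlap, in 6 of the 8 fractions, with GMPs (0.153 to 0.203 against 0.169 to 0.182) and CLPs (0.235 to 0.243 against 0.234 to 0.248) as the exceptions. For Mdm4 per Trp53 the aged ratio was lower without overlap in 5 fractions, MPP1 to MPP4 and MEPs, and higher in 1, the GMPs (0.0785 to 0.101 against 0.118 to 0.133). These ratios are descriptions of 2 libraries a group and were not tested. They recombine the counts of Mdm2, Mdm4 and Trp53 described above and add no further evidence. No share of other gene pairs without overlap was computed, so the numbers of fractions have no background beside them.

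**Figure D2:**
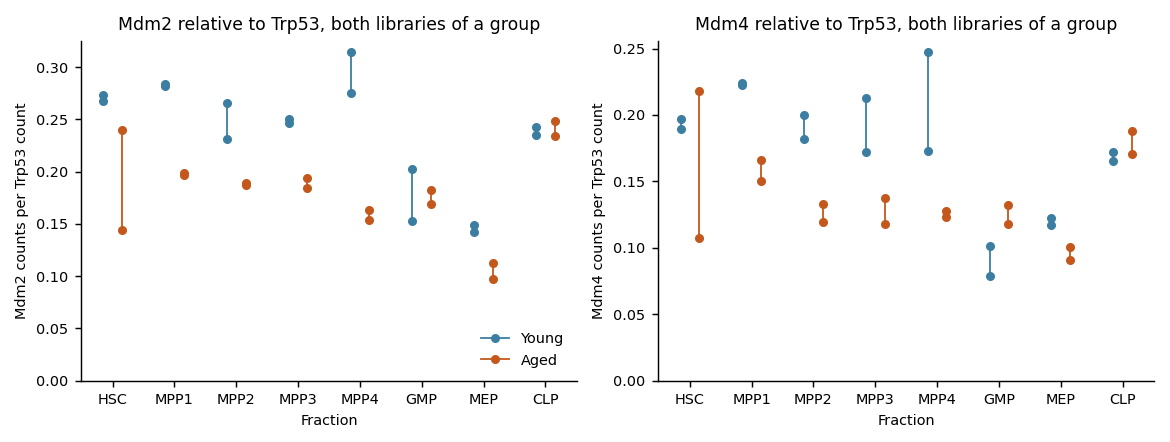
Counts of Mdm2 (left) and of Mdm4 (right) per count of Trp53 (y axes, from 0) in the 8 fractions (x axes), with a line joining the 2 libraries of a group, Young in blue and Aged in orange. The Mdm2 ratio was lower in aged cells without overlap in 6 of 8 fractions, and the Mdm4 ratio was lower in 5 and higher in GMPs. The ratios were not tested, and no share for other gene pairs was computed.

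Among the target genes, Ccng1 (ENSMUSG00000020326.7, chr11:40748552-40755311, - strand), which encodes cyclin G1 and acts with a phosphatase on Mdm2, was called in the committed myeloid and erythroid cells. It fell in GMPs from 143 and 146 CPM to 83.6 and 85.8 CPM, by 0.82 on the log2 scale (SE 0.12, adjusted p = 1.91e-05). In MEPs, where it was highest, it fell from 258 and 269 CPM to 142 and 150.2 CPM, by 0.85 on the log2 scale (SE 0.11, adjusted p = 7.73e-06). Both calls held in each of the 11 alternatives computed for them, but correction for GC content and length brought the values to -0.52 in GMPs and -0.55 in MEPs, smaller by over 1.5 times. The MPP1, MPP2, MPP3 and MPP4 fractions showed smaller differences, of -0.29, -0.16, -0.13 and -0.34, with adjusted p of 0.104, 0.399, 0.479 and 0.0348. Their mean fell by 0.23 on the log2 scale (SE 0.058, adjusted p = 0.00234). CLPs went the other way, at 91.3 and 80.5 CPM in young and 112 and 102 CPM in aged libraries, a difference of 0.34 (SE 0.12, adjusted p = 0.0471) that did not pass.

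In HSCs Ccng1 was at 137 and 145 CPM in young and 138 and 91.9 CPM in aged libraries, so that only one aged library was below the young pair. The difference of -0.26 (SE 0.11, adjusted p = 0.167) became -0.53 (adjusted p = 0.00222) without aged HSC replicate 1 and -0.03 (adjusted p = 0.928) without aged HSC replicate 2. The age difference was not the same across the 8 fractions (adjusted p = 7.08e-05).

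The sestrins Sesn1 and Sesn2 protect cells against oxidative damage and restrain the growth kinase mTORC1. Sesn1 (ENSMUSG00000038332.13, chr10:41809935-41908424, + strand) was the gene of the 10 called in the most fractions, 5 of 8. MPP1 cells went from 161 and 171 CPM to 117 and 123 CPM and MPP2 cells from 127 and 125 CPM to 95.8 and 91.4 CPM. In MPP3 it fell from 158 and 159 CPM to 116 and 112 CPM, and MPP4 cells went from 218 and 225 CPM to 129.6 and 139.9 CPM. In GMPs it fell from 68.6 and 65.5 CPM to 47.1 and 42.8 CPM. The differences on the log2 scale were -0.43 (SE 0.078, adjusted p = 6.54e-04) for MPP1, -0.38 (SE 0.078, adjusted p = 0.00225) for MPP2 and -0.42 (SE 0.078, adjusted p = 4.11e-04) for MPP3. They were -0.63 (SE 0.077, adjusted p = 3.88e-06) for MPP4 and -0.63 (SE 0.081, adjusted p = 6.66e-06) in GMPs. Aged MPP4 held 0.645 times the young Sesn1 level, and over the 4 MPP fractions the mean fell by 0.47 on the log2 scale (SE 0.039, adjusted p = 3.38e-09). MEPs were at 56.3 and 52.5 CPM in young and 44.5 and 46.4 CPM in aged libraries, a difference of -0.26 (SE 0.082, adjusted p = 0.0206) that did not pass.

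In HSCs the age difference of Sesn1 was not that of the MPPs. HSC levels were 214 and 212 CPM in young and 233 and 202 CPM in aged libraries, a difference of 0.07 (SE 0.077, adjusted p = 0.645). The age difference in HSCs exceeded that of the MPP mean by 0.54 on the log2 scale (SE 0.086, adjusted p = 4.88e-04). CLPs were at 100.4 and 100.2 CPM in young and 87.9 and 111 CPM in aged libraries, with a difference of 0.00 (SE 0.078, adjusted p = 1.00) that exceeded the MPP mean by 0.47 on the log2 scale (SE 0.088, adjusted p = 2.54e-04). The calls in MPP3 and MPP4 held in all 11 alternatives. In MPP2 the call was lost without any 1 of the 4 libraries (-0.41 to -0.34, adjusted p 0.0164 to 0.0455), and in MPP1 without young replicate 2, aged replicate 1 or aged replicate 2 (-0.43 to -0.35, adjusted p 0.0125 to 0.035). With a spread estimated from the 4 GMP libraries alone the GMP difference was -0.64 (adjusted p = 0.0123) and did not pass.

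Sesn2 (ENSMUSG00000028893.8, chr4:132492032-132510501, - strand) was called higher in CLPs, from 17.4 and 19.2 CPM to 35.3 and 24.9 CPM, by 0.74 on the log2 scale (SE 0.16, adjusted p = 0.00274). The 2 aged CLP libraries differed, and the value was 0.43 (adjusted p = 0.13) without aged CLP replicate 1, 0.67 (adjusted p = 0.0443) without young CLP replicate 1 and 0.82 (adjusted p = 0.0149) without young CLP replicate 2. The call was also lost with the 4 CLP libraries alone (0.75, adjusted p = 0.0825) and with the replicate block, without and with GC and length offsets (0.72, adjusted p = 0.0114, and 0.63, adjusted p = 0.0125). In MPP3 the levels were 28.3 and 30.6 CPM in young and 19.4 and 19.2 CPM in aged libraries, and in MPP4 26.3 and 25.7 CPM in young and 17.6 and 17.8 CPM in aged libraries. In both, the aged libraries lay below the young ones, with differences of -0.56 (SE 0.16, adjusted p = 0.0151) and -0.47 (SE 0.16, adjusted p = 0.0393). The aged libraries lay below for 39.3% of all genes tested in MPP3 and 41.0% in MPP4. MPP1 was at 36.7 and 32.3 CPM in young and 30.5 and 32.5 CPM in aged libraries and MPP2 at 25.0 and 21.6 CPM in young and 18.03 and 19.2 CPM in aged libraries. The mean over the 4 MPP fractions fell by 0.35 on the log2 scale (SE 0.081, adjusted p = 0.00121), and the age difference in CLPs exceeded it by 1.09 on the log2 scale (SE 0.18, adjusted p = 8.33e-05). HSCs were at 45.9 and 42.0 CPM in young and 36.6 and 44.2 CPM in aged libraries, GMPs at 8.97 and 6.38 CPM in young and 11.1 and 9.91 CPM in aged libraries and MEPs at 30.8 and 32.3 CPM in young and 37.3 and 44.9 CPM in aged libraries. In GMPs and MEPs the aged libraries were the higher ones, by 0.40 (SE 0.18, adjusted p = 0.109) and 0.39 (SE 0.16, adjusted p = 0.0634), without passing. Both aged libraries lay above both young ones for 34.3% of all genes tested in GMPs and 28.1% in MEPs.

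Phlda3 (ENSMUSG00000041801.5, chr1:135766119-135769136, + strand), which keeps the kinase Akt from the membrane, was low throughout and fell in GMPs from 2.47 and 3.27 CPM to 0.912 and 0.521 CPM. The GMP libraries held 43 and 58 counts in young and 12 and 7 in aged cells, and Phlda3 fell by 2.05 on the log2 scale (SE 0.34, adjusted p = 1.02e-04), a call that was lost with the 4 GMP libraries alone (adjusted p = 0.0439). It was highest in CLPs, at 16.1 and 16.7 CPM in young and 11.3 and 15.8 CPM in aged libraries. Its differences in the other 7 fractions ran from -0.43 in MPP3 to 0.30 in MPP1, with adjusted p of 0.255 or more. Zmat3 (ENSMUSG00000027663.12, chr3:32334792-32366014, - strand), a zinc finger protein that binds RNA, passed in 0 fractions with edgeR and with DESeq2 and in 1, MPP4, at an unadjusted p under 0.05. The largest Zmat3 difference was in MPP4, with 2.51 and 2.57 CPM in young and 0.890 and 1.30 CPM in aged libraries, or 38 and 32 counts against 12 and 18. This was -1.12 (SE 0.43, adjusted p = 0.0619), and the MPP mean of -0.53 (SE 0.21, adjusted p = 0.0438) did not pass either. In HSCs the Zmat3 duplicates were 3.02 and 1.41 CPM in young and 2.29 and 4.27 CPM in aged libraries and overlapped.

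Trp53inp1 (ENSMUSG00000028211.11, chr4:11156431-11174379, + strand), whose product promotes cell death and autophagy, fell in MEPs from 27.2 and 15.7 CPM to 5.16 and 6.35 CPM, by 1.89 on the log2 scale (SE 0.31, adjusted p = 6.29e-05). The young MEP duplicates stood far apart, and the call nonetheless held in all 11 alternatives. In MPP4 it fell from 67.2 and 63.4 CPM to 36.5 and 29.2 CPM, by 0.91 on the log2 scale (SE 0.25, adjusted p = 0.00914). That call was lost without any 1 of the 4 MPP4 libraries (-1.08 to -0.75, adjusted p 0.0236 to 0.112). MPP3 was at 54.7 and 57.9 CPM in young and 42.9 and 35.0 CPM in aged libraries, a difference of -0.48 (SE 0.25, adjusted p = 0.169). CLPs held the highest level at both ages, 79.2 and 69.8 CPM in young and 86.8 and 85.5 CPM in aged libraries, whereas GMPs were at 4.72 and 6.77 CPM in young and 5.85 and 5.51 CPM in aged libraries. Aged HSCs were at 41.3 and 17.1 CPM, on both sides of the young pair at 38.6 and 30.5 CPM.

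Aen (ENSMUSG00000030609.18, chr7:78895854-78911209, + strand), a nuclease that p53 induces during cell death, was the target gene called higher in the most fractions, 4 of 8. It rose in MPP3 from 57.3 and 58.6 CPM to 68.3 and 70.8 CPM and in MPP4 from 61.2 and 54.0 CPM to 66.4 and 71.4 CPM. In GMPs it rose from 40.3 and 42.1 CPM to 61.5 and 60.5 CPM and in MEPs from 77.9 and 67.0 CPM to 111 and 106 CPM. The increases on the log2 scale were 0.31 (SE 0.080, adjusted p = 0.00686) in MPP3, 0.34 (SE 0.080, adjusted p = 0.0027) in MPP4, 0.51 (SE 0.080, adjusted p = 6.15e-05) in GMPs and 0.59 (SE 0.078, adjusted p = 6.50e-06) in MEPs. Aged libraries also lay above young ones in MPP1 (53.04 and 57.3 against 58.1 and 58.0 CPM) and MPP2 (56.2 and 54.3 against 63.5 and 63.0 CPM), by 0.12 (SE 0.080, adjusted p = 0.413) and 0.25 (SE 0.080, adjusted p = 0.0395). So did 27.0% of all genes tested in MPP1 and 27.3% in MPP2. HSCs were at 49.3 and 51.7 CPM in young and 45.7 and 48.1 CPM in aged libraries and CLPs at 49.2 and 50.5 CPM in young and 48.0 and 51.5 CPM in aged libraries, with differences of -0.06 (SE 0.081, adjusted p = 0.734) and 0.01 (SE 0.081, adjusted p = 0.964). The MPP mean rose by 0.25 on the log2 scale (SE 0.040, adjusted p = 1.92e-05). The call in MPP3 was lost without any 1 of its 4 libraries (0.28 to 0.34, adjusted p 0.022 to 0.0612), with DESeq2 size factors (adjusted p = 0.016), without the filter (adjusted p = 0.0206) and with the MPP3 libraries alone (adjusted p = 0.0251), 7 of 11 alternatives. The call in MPP4 was lost without young replicate 2 (0.26, adjusted p = 0.051) or aged replicate 2 (0.29, adjusted p = 0.0471), without the filter (adjusted p = 0.0121) and with the MPP4 libraries alone (adjusted p = 0.0468). Correction for GC content and length brought the GMP value to 0.28 (adjusted p = 0.0148), and with only the libraries of the fraction Aen missed the threshold in GMPs (adjusted p = 0.0181) and MEPs (adjusted p = 0.0149).

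Counted over the 10 genes, 18 of the 80 age differences in single fractions passed, 6 higher and 12 lower. HSCs had 0 genes higher and 1 lower (Mdm2), where 3.74% of all genes tested were called higher and 1.66% lower. MPP1 had 0 and 1 (Sesn1), against 4.71% and 2.09%. MPP2 had 0 and 1 (Sesn1), against 4.49% and 3.31%. In MPP3, Aen was higher and Sesn1 lower, 1 gene each way, against 8.14% and 5.79%. MPP4 had the most calls, 2 higher (Trp53 and Aen) and 3 lower (Mdm2, Sesn1 and Trp53inp1), against 10.3% and 6.27%. Both aged MPP4 libraries lay above both young ones for 2 genes and below them for the other 8, where 23.5% and 41.0% of all genes tested did so.

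GMPs had 1 gene higher (Aen) and 3 lower (Ccng1, Sesn1 and Phlda3), against 9.93% and 8.97% of all genes. MEPs had 1 higher (Aen) and 2 lower (Ccng1 and Trp53inp1), against 9.08% and 11.7%. CLPs had 1 higher (Sesn2) and 0 lower, against 5.71% and 4.73%. With 10 genes these shares are coarse, and outside MPP4 and GMPs at most 3 genes passed in a fraction. The median difference of the 10 genes was -0.40 in MPP4 and -0.30 in MPP3, where the median of all genes was -0.02 and -0.04. For the counts of 0, the genes at an unadjusted p under 0.05 numbered 1 higher in HSCs, 1 in MPP1 and 2 in MPP2, with 0 lower in CLPs, and the DESeq2 test called 0 in each of these.

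**Figure D3:**
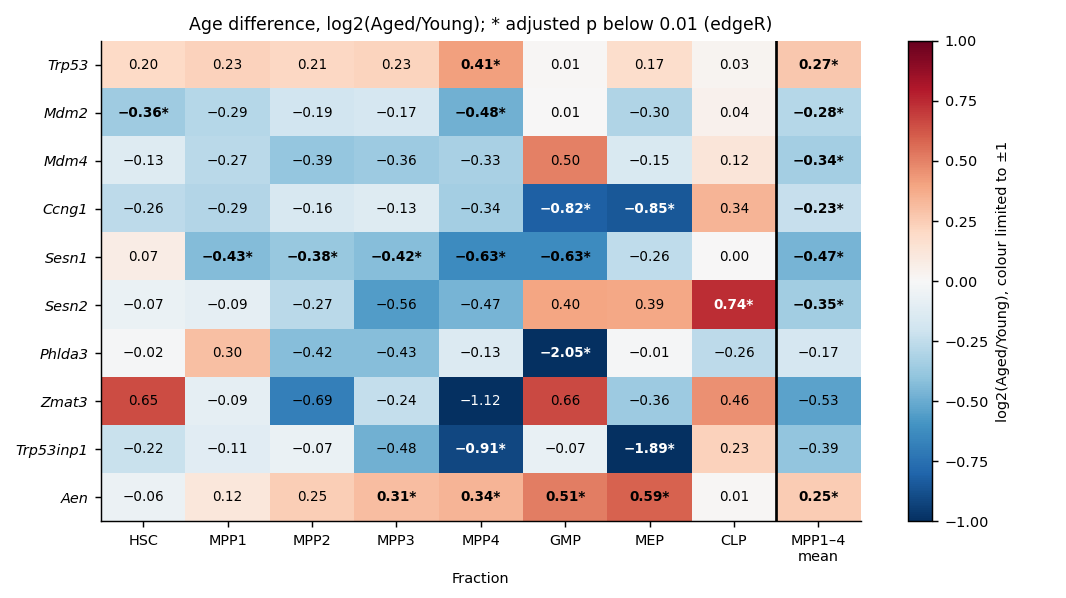
Age difference as log2(Aged/Young) of the 10 genes (rows) in the 8 fractions and as the mean of MPP1 to MPP4 (columns), in red where higher and in blue where lower in aged cells, with colours limited to 1 either way and an asterisk for an adjusted p below 0.01. Asterisks stand at 18 of the 80 single-fraction cells, with Sesn1 in 5 fractions and Aen in 4.

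The 4 MPP fractions together gave the most precise age difference. In their mean, 2 of the 10 genes rose (Trp53 and Aen) and 5 fell (Mdm2, Mdm4, Ccng1, Sesn1 and Sesn2), where 18.9% and 17.7% of all genes tested did so. The sizes were between 0.23 for Ccng1 and 0.47 for Sesn1 on the log2 scale, so none of the 7 reached 0.5. Phlda3 (-0.17, SE 0.13, adjusted p = 0.294), Zmat3 and Trp53inp1 (-0.39, SE 0.12, adjusted p = 0.0121) did not pass. Aged MPPs also held more S and G2M phase transcripts. All 12 genes of a list of replication and mitosis genes, among them Mcm2 to Mcm7, Mki67 and Top2a, were higher in the MPP mean, with a median of 0.47. Their summed level was 4996 to 5085 CPM in young and 6639.9 to 6736 CPM in aged MPP4. In MPP1 the sums were 3993 to 4069 and 5586 to 5592 CPM. Macrophage genes moved the other way, from 45.4 to 50.6 CPM in young to 9.45 to 10.97 CPM in aged MPP4, from 106 to 114 to 31.5 to 31.5 CPM in MPP3, from 127 to 141 to 41.5 to 41.6 CPM in MPP2 and from 30.4 to 32.9 to 13.1 to 14.4 CPM in MPP1. The 5 neutrophil genes, such as Ltf and Ngp, summed to 1140.4 to 1144 CPM in young and 179 to 242 CPM in aged MPP3, and to 702 to 742 and 258 to 265 CPM in MPP2. For granulocyte-macrophage genes the MPP3 sums were 3749.7 to 3995 CPM in young and 2111 to 2161 CPM in aged libraries. In HSCs the macrophage sums were 36.1 to 45.4 and 16.3 to 23.1 CPM, and the neutrophil sums 59.8 to 63.4 CPM in young against 293 to 308 CPM in aged libraries. T and NK cell genes summed to 28.6 to 32.3 CPM in young and 87.5 to 94.0 CPM in aged HSCs, with Cd3e and Cd3d at 0 at both ages. The part of these shifts in the differences of the p53 genes in MPPs and HSCs was not tested.

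Whether age acted differently in different fractions was tested directly. The test over all 8 fractions passed for 7 of the 10 genes, namely Mdm4, Ccng1, Sesn1, Sesn2, Phlda3, Trp53inp1 and Aen, where 34.9% of all genes passed. Trp53 (adjusted p = 0.22), Mdm2 (adjusted p = 0.0111) and Zmat3 (adjusted p = 0.132) did not. With the replicate number as a block 5 genes passed, and Mdm4 (adjusted p = 0.014) and Phlda3 (adjusted p = 0.0275) did not. Mdm4 lay near the threshold and was also lost in 27 of the 32 fits that left out 1 library, with an adjusted p of up to 0.0711, while Phlda3 was lost in 4 and Trp53inp1 in 3 of them. GC and length offsets with the block moved Sesn2 to an adjusted p of 0.0125. HSCs differed from the MPP mean in their age difference for 1 gene, Sesn1, in the higher direction and for 0 in the lower (1 at an unadjusted p under 0.05, 0 with DESeq2), against 1.91% and 1.1% of all genes. For Aen this contrast was -0.32 (SE 0.091, adjusted p = 0.0343). CLPs differed from the MPP mean for 3 genes in the higher direction, Ccng1, Sesn1 and Sesn2, and for 0 in the lower (2 at an unadjusted p under 0.05, 0 with DESeq2), against 10.3% and 12.3% of all genes. The Ccng1 contrast was 0.57 (SE 0.13, adjusted p = 0.00173). Both contrasts use the same 16 MPP libraries and are not independent of each other.

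**Figure D4:**
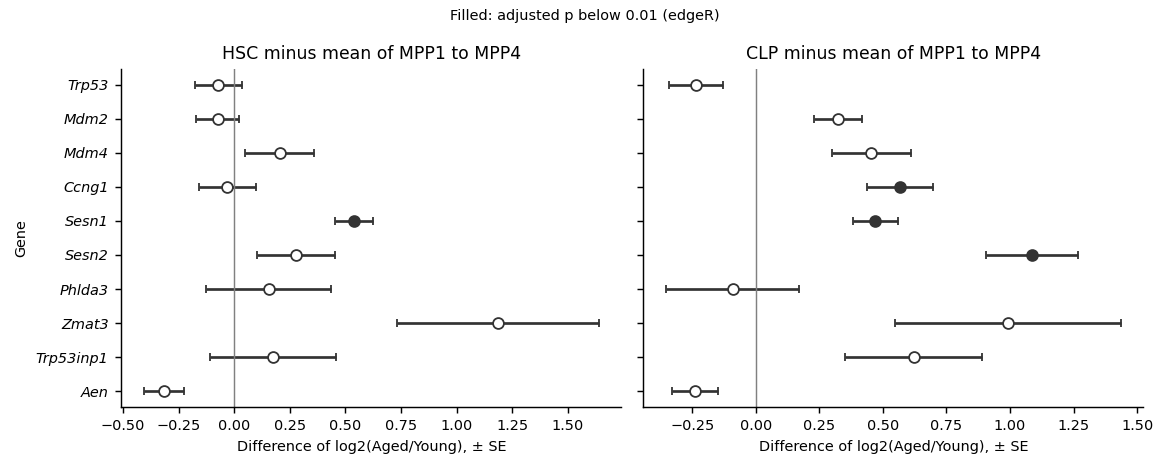
Difference between the age difference of HSCs (left) or CLPs (right) and that of the mean of MPP1 to MPP4, on the log2 scale (x axes, with SE bars), for the 10 genes (y axis), with filled points for an adjusted p below 0.01. Sesn1 is filled in both panels, and Ccng1 and Sesn2 in the CLP panel, all to the right of 0.

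Genes that respond within minutes to stress moved with age in GMPs, MEPs and CLPs as well. Of 11 immediate early and heat shock genes, such as Fos, Egr1 and Hspa1a, 10 were called higher in aged GMPs, against 9.93% of all genes tested. The sum of the 11 was 269 to 279 CPM in young and 2653 to 2996 CPM in aged libraries. In CLPs 8 of the 11 were lower, against 4.73% of all genes tested, with sums of 6395 to 6407 and 1845 to 3168 CPM. The S and G2M list had 7 of 12 genes lower in aged CLPs, against the same 4.73%. Granulocyte-macrophage genes summed to 1385 to 1420.5 CPM in young and 200.5 to 286 CPM in aged CLPs, and to 246 to 272 and 26.6 to 106 CPM in MEPs. In MEPs 5 of the 11 immediate early genes were higher, against 9.08% of all genes tested, with sums of 190.4 to 201 and 520.2 to 891 CPM. Lymphoid genes in MEPs summed to 75.5 to 82.7 CPM in young and 0.178 to 0.412 CPM in aged libraries. B cell genes summed to 98.3 to 100 CPM in young and 0 to 0.801 CPM in aged MEPs. In CLPs the B cell sums were 1672 to 1725 CPM in young and 693 to 724 CPM in aged libraries. Late erythroid genes summed to 134 to 159 CPM in young and 1.19 to 7.98 CPM in aged GMPs. The part of these shifts in the Sesn2, Ccng1, Phlda3, Aen and Trp53inp1 differences of GMPs, MEPs and CLPs was not tested.

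The levels of the genes depended on the fraction. All 10 differed between the 8 fractions of young mice, where 86.9% of all genes did, and 9 differed in aged mice, where 85.5% did. The exception was Mdm4 in aged cells (adjusted p = 0.122). At both ages MEPs held the highest mean level of Trp53, Ccng1, Zmat3 and Aen, and CLPs that of Phlda3 and Trp53inp1. Young GMPs held the lowest level of Mdm2, Mdm4, Sesn2, Zmat3 and Trp53inp1, young MEPs that of Sesn1 and young CLPs that of Ccng1. These places were the same in CPM and after the TMM scaling used in the tests, which raises the level of GMP libraries. The place of Trp53 in GMPs was not, since young GMPs stood next to last in CPM and directly after MEPs with TMM. The ratio of the highest to the lowest fraction in young mice was 1.56 for Trp53 and 1.74 for Mdm2, but 12.97 for Trp53inp1. Young Sesn1 fell in the order MPP4, HSC, MPP1, MPP3, MPP2, CLP, GMP and MEP, and no neighbours in that order had overlapping libraries. In aged mice HSCs took the first place of that order, and CLPs overlapped MPP2 and MEPs overlapped GMPs. For Trp53 in CPM, 5 of the 7 neighbouring pairs overlapped in young mice and 3 in aged mice, and MEPs stood apart from the next fraction at both ages.

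Compared with the mean of MPP1 to MPP4, young HSCs had more Sesn1 (0.36, SE 0.059, adjusted p = 3.65e-05) and more Sesn2 (0.63, SE 0.12, adjusted p = 1.43e-04). These were 2 genes higher and 0 lower (2 at an unadjusted p under 0.05, 0 with DESeq2), against 19.2% and 18.9% of all genes. In aged mice the gap was 0.90 (SE 0.058, adjusted p = 1.93e-11) for Sesn1 and 0.91 (SE 0.12, adjusted p = 1.05e-06) for Sesn2. Zmat3 was also higher in aged HSCs, by 1.16 (SE 0.30, adjusted p = 0.00251), and Aen was lower, with a difference of -0.49 (SE 0.066, adjusted p = 1.52e-06). These were 3 genes higher and 1 lower, against 26% and 22.3%. The widening of the gap with age was tested for each gene by the contrast of age differences given above, and passed for Sesn1, whereas Sesn2 (0.28, SE 0.17, adjusted p = 0.38), Zmat3 (1.19, SE 0.45, adjusted p = 0.115) and Aen did not pass.

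Across the 16 group means of log2 CPM with TMM scaling, the level of Aen went with that of Trp53 (Pearson's r = 0.90, n = 16 groups), and so it did in CPM of the library total (r = 0.89). Sesn2 went with Zmat3 (r = 0.84 and 0.82). Sesn1 went against Trp53, with r = -0.82 under TMM and -0.52 in CPM of the total, so the strength of that relation depended on the scaling. Mdm2 and Trp53 had r = -0.52 and -0.39. Groups share their fraction across ages and both genes of a pair come from the same libraries, so these values are descriptions. MEPs lay at the far end of the relations to Aen and to Sesn1, with the highest Trp53 and Aen levels.

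**Figure D5:**
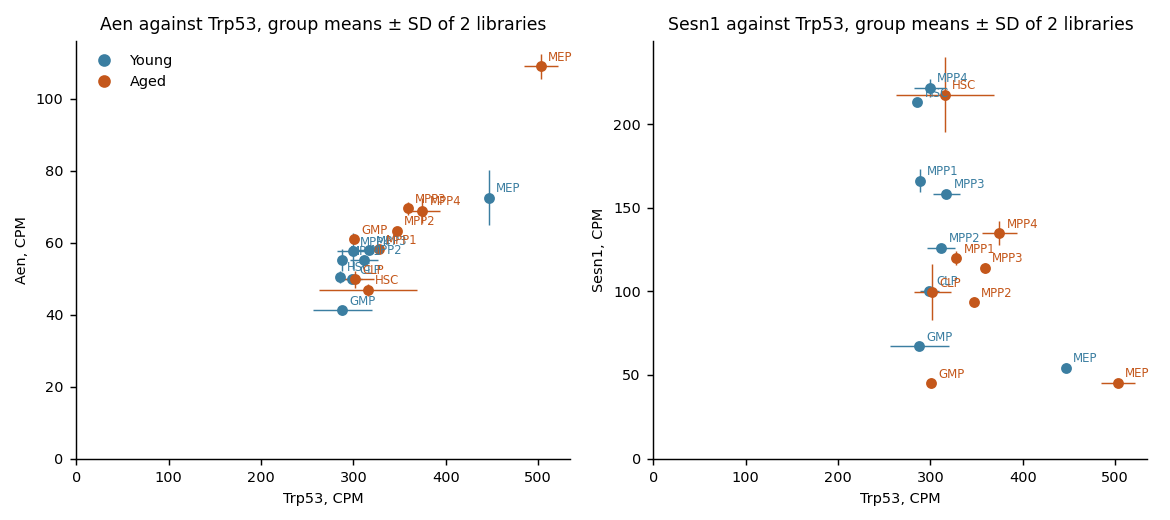
Mean CPM of Aen (left) and Sesn1 (right) on the y axes against mean CPM of Trp53 on the x axes, all from 0, for the 16 groups of fraction and age, with SD bars over 2 libraries, Young in blue and Aged in orange. Aen rises along the Trp53 axis, Sesn1 shows a looser decline, and the 2 MEP groups lie at the far right of both panels.

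Among all genes tested, those with the most similar profile over the 16 group means, with TMM scaling, were Tamm41 (r = 0.98) and Tars2 (r = 0.98) for Trp53. For the inhibitors they were Etv1 (r = 0.86) and Aire (r = 0.86) for Mdm2 and Tgfbrap1 (r = 0.87) and Whsc1l1 (r = 0.87) for Mdm4. They were C330018D20Rik (r = 0.94) and Desi2 (r = 0.93) for Ccng1, 2810403D21Rik (r = 0.96) and Glipr2 (r = 0.96) for Sesn1 and Lpin1 (r = 0.93) and Dnajb2 (r = 0.93) for Sesn2. Phlda3 was most like Traf4 (r = 0.88) and Sapcd1 (r = 0.87), and Zmat3 most like St3gal6 (r = 0.95) and Ppp6r2 (r = 0.94). The nearest genes were Msh5 (r = 0.97) and Gpr137b (r = 0.96) for Trp53inp1 and Polrmt (r = 0.95) and Chd1l (r = 0.94) for Aen.

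A wider list of 40 p53 target genes, of which 38 were tested, moved in both directions. The numbers called higher and lower are given with their share of the list beside the share of all genes tested. HSCs had 4 and 0 (10.5% and 0% of the list, against 3.74% and 1.66%), with 3 lower at an unadjusted p under 0.05 and 0 with DESeq2. For MPP1 they were 2 and 2 (5.26% and 5.26% of the list, against 4.71% and 2.09%), and for MPP2 2 and 4 (5.26% and 10.5% of the list, against 4.49% and 3.31%). MPP3 cells had 4 and 3 (10.5% and 7.89% of the list, against 8.14% and 5.79%), and MPP4 cells 4 and 5 (10.5% and 13.2% of the list, against 10.3% and 6.27%). GMPs had 7 and 1 (18.4% and 2.63% of the list, against 9.93% and 8.97%). In MEPs the numbers were 3 and 8 (7.89% and 21.1% of the list, against 9.08% and 11.7%), and in CLPs 1 and 5 (2.63% and 13.2% of the list, against 5.71% and 4.73%). In the MPP mean they were 8 and 11 (21.1% and 28.9% of the list, against 18.9% and 17.7%), and the median of the list was -0.07 where that of all genes was -0.04.

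Cdkn1a, which encodes the cell cycle inhibitor p21, had opposite age differences in HSCs and MPPs. It rose in HSCs from 37.0 and 37.1 CPM to 48.9 and 55.8 CPM (0.55, adjusted p = 0.00632). In MPP1 it fell from 38.0 and 34.3 CPM to 23.7 and 21.5 CPM (-0.64, adjusted p = 0.00208), and in MPP4 from 115 and 98.1 CPM to 54.3 and 61.6 CPM (-0.79, adjusted p = 5.28e-05). It also fell in MPP2 (-0.94), MPP3 (-0.65) and MEPs (-2.29). The age difference of HSCs minus that of the MPP mean was 1.30 (SE 0.14, adjusted p = 6.82e-06). Plk2, a stress-induced kinase, had the same contrast at 1.71 (SE 0.18, adjusted p = 1.82e-05). It fell in MPP4 from 182 and 145 CPM to 52.4 and 54.1 CPM (-1.53, adjusted p = 2.77e-06) and likewise in MPP1, MPP2, MPP3 and CLPs, and it was called higher in GMPs, where young libraries held 0 counts and aged ones 10 and 5. Btg2, an antiproliferative gene, fell in MPP2, MPP3, MPP4 and MEPs, for example from 737 and 735 CPM to 311 and 336 CPM in MPP4 (-1.10, adjusted p = 1.64e-05), and rose in GMPs from 20.1 and 18.8 CPM to 50.1 and 55.3 CPM (1.38, adjusted p = 3.68e-06). Gadd45a, a damage-induced gene, fell in MPP2, MPP4 and CLPs (-0.67, -0.72 and -0.81).

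The genes of p53-dependent cell death did not share a direction. Bax, which opens the mitochondrial membrane, rose in MPP4 from 38.2 and 42.9 CPM to 52.6 and 51.5 CPM (0.45, adjusted p = 0.00488) and in MEPs from 87.8 and 83.4 CPM to 133 and 122 CPM (0.58, adjusted p = 2.94e-04). Bbc3, which encodes Puma, fell in MPP4 from 27.5 and 23.2 CPM to 15.2 and 16.2 CPM (-0.61, adjusted p = 0.00651) and rose in CLPs from 10.5 and 10.3 CPM to 19.9 and 15.8 CPM (0.79, adjusted p = 0.00163). Pmaip1, which encodes Noxa, rose in MPP3 from 2.45 and 2.95 CPM to 8.07 and 12.0 CPM (1.94, adjusted p = 7.82e-04). Pidd1, a death domain adaptor, rose in GMPs (0.66) and MEPs (0.89). In the MPP mean Bax was 0.33 (SE 0.056, adjusted p = 5.25e-05), Bbc3 -0.47 (SE 0.080, adjusted p = 4.58e-05) and Pmaip1 1.20 (SE 0.20, adjusted p = 4.94e-05).

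Gtse1, a gene of the G2 and S phases whose product binds p53, was the listed target higher in the most fractions, 7 of 8. It rose in MPP4 from 37.6 and 33.0 CPM to 59.2 and 57.6 CPM (0.81, adjusted p = 2.56e-07) and in GMPs from 31.7 and 31.3 CPM to 72.6 and 66.9 CPM (1.09, adjusted p = 4.87e-09), and fell in CLPs (-0.34, adjusted p = 0.00337). The same sign held for the S and G2M list in MPP4 and in CLPs. In GMPs that list had 6 genes higher and 3 lower (median 0.18), against 9.93% and 8.97% of all genes tested. In MEPs it had 1 higher and 2 lower (median -0.04), against 9.08% and 11.7%. Rps27l, a ribosomal protein gene whose reads may be shared with its close copy Rps27, rose in all 4 MPP fractions, by 0.41 in MPP1 to 0.63 in MPP4, and fell in GMPs (-0.62), MEPs (-0.38) and CLPs (-0.49). Sulf2, an extracellular sulfatase, rose in HSCs (2.84, adjusted p = 0.00137) and MPP4 (1.75, adjusted p = 0.0027), from 1.24 and 0.492 to 5.68 and 6.05 CPM in HSCs.

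Of 32 regulators and cofactors of p53, 27 were tested, and the numbers higher and lower in the MPP mean were 7 and 5 (25.9% and 18.5% of the list, against 18.9% and 17.7%). HSCs had 0 and 0 (0% and 0% of the list, against 3.74% and 1.66%), with 3 higher and 1 lower at an unadjusted p under 0.05 and 0 either way with DESeq2. MPP1 cells had 1 and 0 (3.70% and 0% of the list, against 4.71% and 2.09%) and MPP2 cells 2 and 0 (7.41% and 0% of the list, against 4.49% and 3.31%). The numbers were 4 and 0 (14.8% and 0% of the list, against 8.14% and 5.79%) for MPP3 and 4 and 1 (14.8% and 3.70% of the list, against 10.3% and 6.27%) for MPP4. They were 1 and 4 (3.70% and 14.8% of the list, against 9.93% and 8.97%) for GMPs, 1 and 2 (3.70% and 7.41% of the list, against 9.08% and 11.7%) for MEPs and 2 and 0 (7.41% and 0% of the list, against 5.71% and 4.73%) for CLPs. Where 0 were lower, an unadjusted p under 0.05 was reached by 4 in CLPs, 2 in MPP1 and 3 each in MPP3 and MPP2, and DESeq2 called 0 in CLPs and MPP1 and 1 each in the other two. Chek1, a kinase of the DNA damage checkpoint, rose in MPP1 (0.50), MPP3 (0.70) and MPP4 (0.54) and fell in GMPs (-0.91) and MEPs (-0.92). Rpl5, a ribosomal protein that can bind Mdm2, rose in MPP2, MPP3 and MPP4 (0.38, 0.36 and 0.42) and fell in GMPs (-0.36). Prmt5, an arginine methyltransferase, rose in MPP2, MPP3 and MPP4 (0.28, 0.28 and 0.57). In GMPs the acetyltransferase gene Kat5 rose (0.85), while the deacetylase gene Sirt1 (-0.99) and the ubiquitin ligase gene Rfwd2 (-0.43) fell. Atm, the kinase that activates p53 after double-strand breaks, fell in MEPs (-0.73, adjusted p = 0.00821) and did not pass in the other 7 fractions.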

How the data were processed

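RNA sequencing was analysed from the raw count table that the authors deposited, which holds counts of reads per gene for 24421 genes and 32 libraries. According to the study's methods and the submitters' processing notes, poly-A cDNA was amplified from few cells with a SMARTer kit, and single reads were aligned to mm10 with TopHat2 2.0.13 and Bowtie2 2.1.0 and counted with StringTie. No molecular identifiers were used and no strand setting is stated, so amplification noise and antisense reads remain in the counts. A deposited table of normalised counts and tables of the authors' comparisons, which hold fold changes and p-values, were not used here. Among the genes counted, 27 names had turned into dates (0.188% of counts).

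Counts were tested with edgeR 4.0.16 in R 4.3.3, by quasi-likelihood F tests with TMM factors of 0.807 to 1.11, 16 group means on 32 libraries and 16 residual degrees of freedom. The filter on low counts kept 14154 genes. Adjustment followed Benjamini and Hochberg over all genes tested in each comparison, and genes with an adjusted p below 0.01 (two-sided) were called. CPM are counts per 1000000 of the library total (11237384 to 17723245), without TMM factors. The scripts were tested on simulated counts. The members and gene lists were chosen with earlier results of these data known. Of the 2 wider p53 lists, the text names the 4 genes called in the most fractions in each direction, with Cdkn1a, Bax, Bbc3 and Pmaip1, and for each of the 10 genes the 2 with the highest correlation. Positions are from GENCODE M21 on GRCm38, matched by symbol (23350 genes directly, 678 by an older symbol). The alternatives were DESeq2 1.42.0 (test and size factors), no filter, only the libraries of a contrast, a replicate block, GC and length offsets, other thresholds and leaving out each library. The number of alternatives in which a call held or was lost leaves out the other thresholds.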

Additional observations from a re-analysis of the deposited data

Results flagged for a closer look

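The age difference was not the same in the 8 fractions for 7 of the 10 genes, by edgeR's test of the difference itself. Of all genes tested, 34.9% passed that test. The adjusted p was 0.00972 for Mdm4, 7.08e-05 for Ccng1, 6.31e-05 for Sesn1 and 5.55e-04 for Sesn2. It was 0.00548 for Phlda3, 0.00325 for Trp53inp1 and 4.23e-04 for Aen. With the replicate number as a block 5 genes passed, without Mdm4 (adjusted p = 0.0140) and Phlda3 (adjusted p = 0.0275), and Mdm4 was also lost in 27 of the 32 fits that left out 1 library.

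Sesn1 differed in its age difference between HSCs and the mean of MPP1 to MPP4 by 0.54 on the log2 scale, and between CLPs and that mean by 0.47. For CLPs the contrast was 0.57 for Ccng1 and 1.09 for Sesn2. All 4 contrasts passed at an adjusted p below 0.01 and were positive, and they share the MPP libraries. Of all genes tested, 1.91% were called in the higher direction in the HSC contrast and 10.3% in the CLP contrast.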

How the results depend on the processing

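Of the 80 age differences of the 10 genes in single fractions, 20 had the other sign under at least 1 alternative. None of these was called in the main test, and 1 was called in an alternative, Trp53 in HSCs, at 0.39 without aged HSC replicate 1 and -0.03 without aged HSC replicate 2. Of the 18 calls in single fractions, 6 held under every alternative other than the thresholds. They were Mdm2 in MPP4, Ccng1 in GMPs and MEPs, Sesn1 in MPP3 and MPP4 and Trp53inp1 in MEPs. Of these, Mdm2 in MPP4 (-0.48) and Sesn1 in MPP3 (-0.42) did not reach a size of 0.5 on the log2 scale. The counts of called genes moved as follows, and the cause was not tested unless fewer libraries or a threshold set it. They stand without the calls over all genes in the same setting, so a shift particular to the 10 genes cannot be read from them. With DESeq2 size factors 0 genes were called in HSCs and 5 in MEPs. Without the filter the counts were 0 in HSCs, 1 in MPP3 and 5 in MEPs. With only the libraries of a contrast HSCs and CLPs had 0, MPP1 and MPP2 4 each, MPP3 and GMPs 1 each and MPP4 3, with 6 for CLPs against the MPP mean. The DESeq2 test called 2 in MPP1, 5 in MEPs and 5 for CLPs against the MPP mean. GC and length offsets gave 2 in MPP1, 2 in CLPs and 7 for CLPs against the MPP mean, and together with a replicate block 2 in MPP2 and 7 for CLPs against the MPP mean. An adjusted p under 0.05 gave 2 in MPP1, 2 in MPP2, 5 in MEPs, 2 in CLPs, 2 for HSCs and 6 for CLPs against the MPP mean, and 4 for young HSCs against MPPs. A size of at least 0.5 on the log2 scale left 0 in HSCs, MPP1, MPP2, MPP3 and the MPP mean, 2 in MPP4 and 1 for young HSCs against MPPs.

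Leaving out 1 library at a time gave 0 to 3 genes in HSCs, 0 to 1 in MPP1 and in CLPs, 0 in MPP2, 1 in MPP3 and 2 to 4 in MPP4. It gave 4 in GMPs, 3 to 4 in MEPs, 6 to 7 in the MPP mean and 5 to 8 in the test across fractions. For HSCs against the MPP mean it gave 1 to 2, with 2 only without young MPP4 replicate 1.

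With the replicate block, 0 genes were called in HSCs and 0 in CLPs, where the calls of Mdm2 and Sesn2 were lost, and 5 in the test across fractions, where Mdm4 and Phlda3 were lost. It changed none of the other single-fraction calls. The labels give the samples a shared number and state no pairing. The deviations of same-numbered young and aged libraries correlated over 8054 genes with r from -0.316 in MPP1 to 0.425 in MPP3. With 2 libraries a group, these values cannot settle whether libraries were paired in some fractions. Crossing the numbers in MPP1 called 1 gene there.

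Depth limits Zmat3 and Phlda3 most, with 5 to 95 counts per library for Zmat3. With 2 libraries per group a call rests on a spread shared over all groups. The median of all genes for aged HSCs against MPPs moved from 0.07 to 0.19 with GC and length offsets and to 0.13 with DESeq2 size factors.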
